A study of Oryza sativa Indica Group with 6 samples.

Results

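The genes described here are 393 rice genes whose transcripts fell strongly in young panicles of the *ssh1* mutant, out of 55982 locus IDs that were listed once per sample. A gene was a member when its mean level in the wild type was at least 5 FPKM (fragments counted on a gene, scaled to its exon length and to the library size), its mean in *ssh1* was at most 0.333 of that level, and every *ssh1* replicate was below every wild-type replicate. In all, 13207 genes reached the wild-type minimum, and the members made up 2.98% of these. The members were thus chosen by their levels in both genotypes, and these levels and the ratios between them are given below as a description with no test.

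The wild type, YIL100, is an introgression line from a cross of the *indica* variety Teqing with the wild rice *Oryza rufipogon*, and its ripe seeds shatter. The *ssh1* mutant came from YIL100 seed treated with the mutagen ethyl methanesulfonate and does not shatter. Whole young panicles with a length of 0 to 4 cm were sampled from untreated plants of both genotypes, with 3 replicates per genotype and several plants pooled in each replicate. All 3 *ssh1* replicates come from 1 mutant line, so the lesion in *SNB* and any other mutation of that line cannot be told apart in these data.

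Seeds of wild rice are shed at the abscission zone, a few layers of small cells between the grain and its stalk. *SNB* (*SUPERNUMERARY BRACT*, LOC_Os07g13170, on chromosome 7), the gene altered in *ssh1*, encodes a transcription factor of the APETALA2 family that is known for its part in spikelet meristem fate. *qSH1* and *SH5* encode BEL1-type homeodomain proteins, *SHAT1* another APETALA2-type factor, and *SH4* a factor with a Myb-like DNA-binding domain, and all of these act in abscission zone formation. A panicle of this size holds meristems, young spikelets, branches, and vascular tissue together. In such bulk samples, fewer cells of a type and less RNA per cell cannot be told apart.

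FPKM is already scaled to library size, so its sum does not measure the size of a library. Summed FPKM lay between 883159 and 978426 in wild-type libraries and between 832551 and 956551 in those of *ssh1*, and between 30321 and 31015 locus IDs were listed at 0 in each. Relative depth, read from the spacing of the lowest values, lay between 0.848 (*ssh1* replicate 1) and 1.04 (*ssh1* replicate 3) times that of wild-type replicate 1. In the other libraries, 41.7% to 47.3% of the low values compared lay at that spacing, so this depth is approximate. FPKM holds no fragment count, so no counting interval or detection limit is given. Over 18537 tested genes the log2 difference between *ssh1* and the wild type had a median of -0.14, which moved to -0.01 after median-of-ratios scaling.

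*SNB* itself was not a member. Its level was 20.9, 16.9, and 18.0 FPKM in the wild type and 7.97, 7.44, and 8.86 FPKM in *ssh1*, so that the genotypes did not overlap and *ssh1* held 43.5% of the wild-type mean (limma log2 fold change -1.11, standard error 0.11, adjusted p = 0.000725). By an exact permutation test (two-sided) p was 0.1, which is also the lower bound for groups of 3. *SNB* thus passed both limma thresholds (a 2-fold change and an adjusted p under 0.001, with Benjamini-Hochberg adjustment), a call that was lost after median-of-ratios scaling (log2 fold change -0.98) and whenever a replicate was left out (limma adjusted p from 0.00166 to 0.00538). *SH5* stood at 39.9% of the wild type (limma log2 fold change -1.31, adjusted p = 0.00115) and *qSH1* at 51.7% (limma log2 fold change -0.94, adjusted p = 0.00165), both above the adjusted p threshold. The change of *qSH1* was also under 2-fold. *SH5* passed both with a minimum mean of 5 FPKM (limma adjusted p = 0.000923) and with quantile normalization (0.000966). It did not with median-of-ratios scaling (limma adjusted p = 0.00142) or with any replicate left out. *SHAT1* stood at 65.2% of the wild type with an adjusted p of 0.0189 in limma. *SH-H*, *OsMADS15*, and the *UBIQUITIN* gene LOC_Os03g13170 had ratios of 105%, 93.4%, and 82.4%. *SH4* gave 5.33, 4.21, and 4.05 FPKM in the wild type against 7.85, 0.447, and 9.13 FPKM in *ssh1*, with *ssh1* replicate 2 far below both others. None of the shattering genes therefore met the limit of 0.333, and by that limit each member necessarily fell by a larger factor than whole-gene *SNB* FPKM did. The study reports that the lesion changes how *SNB* RNA is spliced. A whole-gene FPKM does not separate intact from altered transcripts, so it does not give the fall of intact *SNB*. The locus IDs of the members are not paired with gene names here, and the members are described by locus ID, level, replicate pattern, and place on the chromosome.

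Across the members, *ssh1* held a median of 26.0% of the wild-type mean, with the middle of the distribution between 20.4% and 29.8% (lower and upper quartile). Most members sat near the limit. In 218 of them the *ssh1* mean was between 0.25 and 0.333 of the wild-type mean, in 83 between 0.2 and 0.25, in 74 between 0.1 and 0.2, and in 18 at most 0.1. The 3 members nearest to the limit, LOC_Os05g13320, LOC_Os05g07600, and LOC_Os01g59730, were at 33.27%, 33.29%, and 33.33% of the wild type, and the 3 genes that just missed it, LOC_Os02g47060, LOC_Os03g48600, and LOC_Os02g40440, were at 33.36%, 33.37%, and 33.38%. The members thus form the tail of a continuous distribution and not a separate cluster, as the plot of both group means shows.

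**Figure D1:**
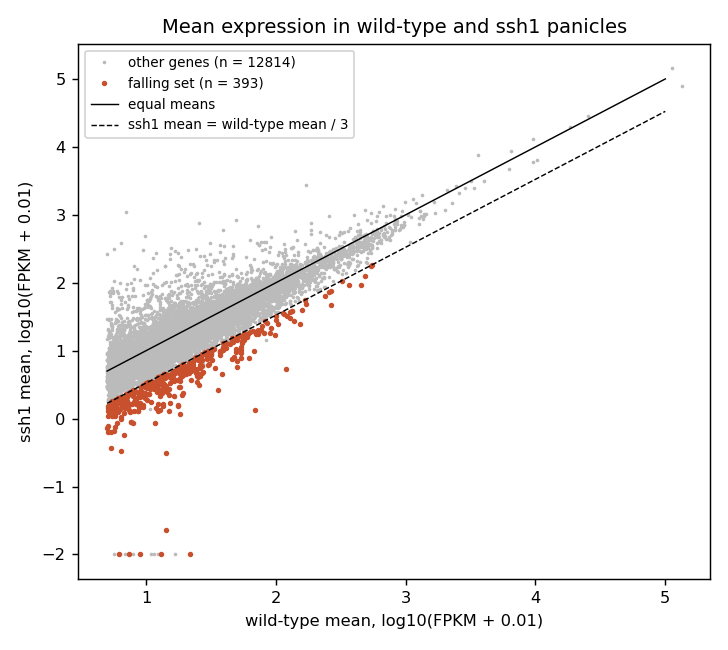
Mean level in *ssh1* (vertical axis) against mean level in the wild type (horizontal axis), both as log10(FPKM + 0.01), for the 13207 genes with a wild-type mean of at least 5 FPKM. Orange points are the 393 members, grey points the other 12814 genes, the solid line marks equal means, and the dashed line an *ssh1* mean at 0.333 of the wild type; the members follow on from the grey points below the dashed line, and only a few lie far from it.

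Members were found over a wide range of expression. The wild-type mean ran from 5.03 to 552 FPKM with a median of 16.2 FPKM, against a median of 18.6 FPKM over all genes with a wild-type mean of at least 5 FPKM. Members made up 3.69% of the genes at 5 to 10 FPKM (120 of 3253), 3.11% at 10 to 20 FPKM (117 of 3760), 2.39% at 20 to 50 FPKM (93 of 3897), 2.91% at 50 to 100 FPKM (38 of 1305), and 2.52% above 100 FPKM (25 of 992). Above the wild-type mean of the highest member lay 108 genes, up to 133792 FPKM, which hold no member by that definition. The share was somewhat higher among weakly expressed genes, and the median level kept in *ssh1* went from 24.3% of the wild type in the lowest of these classes to 28.3% in the highest. Together the members contributed 13828, 13554, and 13567 FPKM to the wild-type libraries and 3740, 2672, and 4037 FPKM to the *ssh1* libraries. As a share of all FPKM of a library, this was 1.39% to 1.54% in the wild type and 0.321% to 0.422% in *ssh1*.

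Among the members with the largest falls on the log2(FPKM + 1) scale, LOC_Os12g38720 on chromosome 12 fell furthest. It had 62.2, 55.6, and 88.2 FPKM in the wild type and 1.62, 0.443, and 1.90 FPKM in *ssh1*, so that 1.92% of the wild-type mean was left. LOC_Os06g02530 was the most abundant gene to fall to under 10% of its wild-type level, with 115.6, 130.9, and 111.5 FPKM in the wild type and 4.51, 3.54, and 7.79 FPKM in *ssh1* (4.42%). LOC_Os12g34900 had 16.0, 12.9, and 13.9 FPKM in the wild type against 0.282, 0.358, and 0.279 FPKM in *ssh1* (2.15%). In these 3 genes all *ssh1* replicates were low together, and the lowest wild-type value was far above the highest *ssh1* value.

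A further 5 members were listed at 0 in all 3 *ssh1* replicates. LOC_Os12g18230 had 21.8, 23.6, and 20.01 FPKM in the wild type, and LOC_Os11g32940 had 13.03, 12.93, and 13.002 FPKM, the closest agreement between wild-type replicates of the genes named here. LOC_Os01g10940 had 10.97, 7.48, and 8.29 FPKM in the wild type, LOC_Os03g41320 8.63, 9.06, and 4.44 FPKM, and LOC_Os11g30300 4.38, 7.32, and 6.89 FPKM. LOC_Os11g39990, with 11.6, 16.2, and 14.7 FPKM in the wild type, was listed at 0 in *ssh1* replicates 1 and 2 and at 0.0383 FPKM in replicate 3. A value of 0 in these files can also stand for a failed estimate or for a gene on which too few fragments fell, so no fold change is given for these genes. LOC_Os12g18230 and LOC_Os03g41320 also had wild-type values printed identically for other locus IDs, as described at the end.

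Not every large fall on the log2 scale was shared by the replicates. LOC_Os03g53590 had 49.5, 49.0, and 53.2 FPKM in the wild type, whereas *ssh1* replicate 1 was at 42.6 FPKM and replicates 2 and 3 were listed at 0. LOC_Os02g30550 showed 14.9, 31.8, and 27.9 FPKM in the wild type and 12.9 FPKM in *ssh1* replicate 2, with 0 in replicates 1 and 3. LOC_Os12g37415, the only member with an *ssh1* value above 0 and below 0.001 FPKM, had 319, 211, and 234 FPKM in the wild type and 119, 2.19e-07, and 96.9 FPKM in *ssh1*. In each of these genes 1 or 2 *ssh1* libraries were at or near 0, and the rest were far less reduced.

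In all, 12 members were listed at 0 in 1 or 2 *ssh1* replicates, and in 4 of these another *ssh1* replicate was above 5 FPKM. Replicate 2 was among the libraries at 0 in 9 of the 12 and was alone at 0 in 7. At the other end, 14 members had every *ssh1* value under 1 FPKM, and 8 had every value under 0.5 FPKM.

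The 10 members with the highest wild-type means kept between 17.7% and 33.3% of their mean level in *ssh1*. All of their *ssh1* values were above 20 FPKM except that of LOC_Os12g37415 in replicate 2, given above. LOC_Os06g06460 headed them, with 612, 556, and 488 FPKM in the wild type and 207, 121, and 220 FPKM in *ssh1* (33.1%). LOC_Os04g53950 followed with 562, 567, and 487 FPKM against 173, 162, and 199 FPKM (33.0%), and LOC_Os06g43600 with 508, 454, and 492 FPKM against 167, 99.2, and 111 FPKM (25.9%). These genes were reduced in every *ssh1* library, and their lowest wild-type value was at least 2 times their highest *ssh1* value.

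LOC_Os08g01100 was the most strongly reduced of the 10, with 275, 291, and 236 FPKM in the wild type and 36.0, 42.9, and 63.0 FPKM in *ssh1* (17.7%). LOC_Os03g01320 had 365, 371, and 629 FPKM against 129, 90.3, and 59.8 FPKM (20.5%), with wild-type replicate 3 well above the others. LOC_Os07g40130 had 215, 233, and 270 FPKM against 74.2, 59.3, and 56.1 FPKM (26.4%). The last 2 genes were lowest in *ssh1* replicate 3, LOC_Os08g01100 was lowest in replicate 1, and the other 7 of the 10 were lowest in replicate 2. These 7 include LOC_Os12g37415, LOC_Os04g41900 (367, 406, and 321 FPKM against 111, 26.8, and 141 FPKM, 25.5%), LOC_Os01g67110 (359, 322, and 283 FPKM against 115, 78.1, and 127 FPKM, 33.3%), and LOC_Os11g05730 (278, 277, and 243 FPKM against 75.3, 54.3, and 97.4 FPKM, 28.5%).

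**Figure D2:**
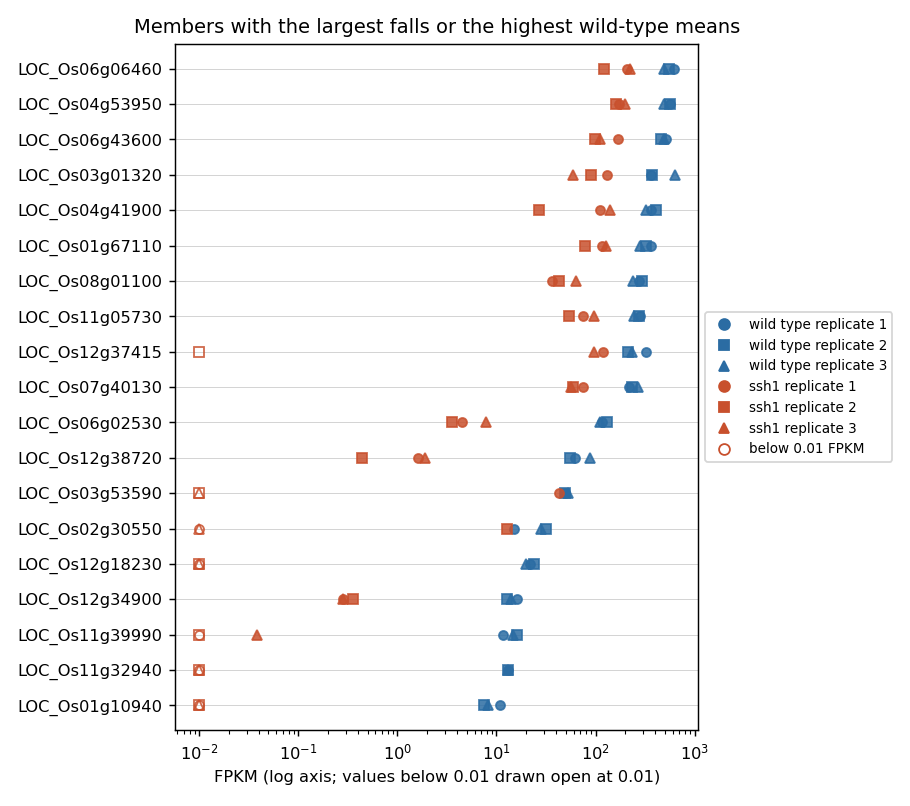
Level in FPKM (horizontal log axis) of the members with the largest falls on the log2 scale or the highest wild-type means (rows, by wild-type mean), with 1 symbol per replicate, blue for the wild type and orange for *ssh1*. Open symbols at 0.01 stand for values below 0.01 FPKM; abundant members such as LOC_Os06g06460 sit at 121 to 220 FPKM in *ssh1*, while LOC_Os12g18230 and LOC_Os11g32940 have 3 open symbols, and LOC_Os03g53590 and LOC_Os12g37415 have *ssh1* replicates far apart.

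The members did not fall by the same amount in the 3 *ssh1* libraries. The median member was at 27.1% of its wild-type mean in *ssh1* replicate 1, at 18.5% in replicate 2, and at 29.4% in replicate 3, and the median levels were 4.09, 2.34, and 4.38 FPKM against 15.4 to 16.1 FPKM in the wild-type libraries. Of the 388 members above 0 in some *ssh1* library, 260 (67.0%) were lowest in replicate 2, 88 (22.7%) in replicate 1, and 40 (10.3%) in replicate 3. Among the 12814 genes that were not members, replicate 2 was the lowest *ssh1* library for 44.5%. Replicate 2 was therefore the lowest library for many genes, and more often so among the members. The rule used the *ssh1* mean, which 1 low library pulls down, so it favours genes of this kind. The difference from the other genes arises at least in part from that choice, and no test was made. With median-of-ratios scaling these shares were 61.6% of the members (239) and 33.1% of the other genes, and after rescaling to a common sum 57.5% (223) and 22.1%. Replicate 2 had the lowest summed FPKM (832551) and the lowest median-of-ratios factor (0.919, against 0.967 to 1.06 in the others), while its relative depth was 0.942. Their part in the pattern beyond these rescalings was not tested. Replicate 3 was the highest *ssh1* library for 229 members (59.0%).

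**Figure D3:**
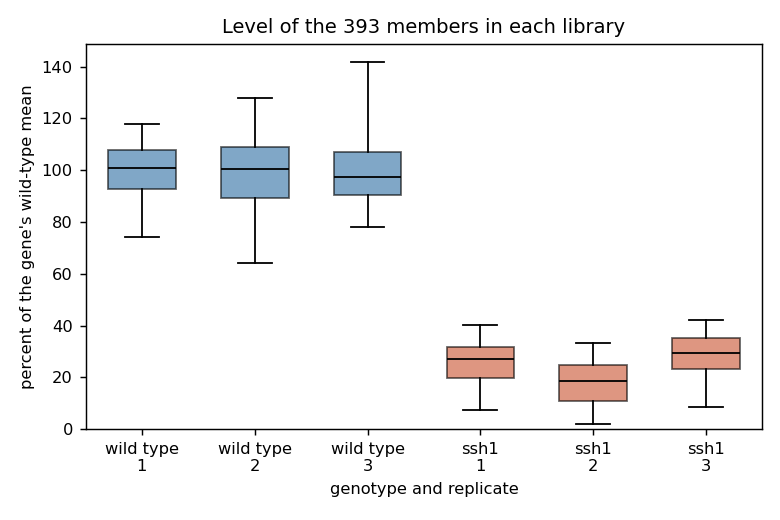
Level of the 393 members in each library as a percent of the gene's wild-type mean (vertical axis), for 3 wild-type and 3 *ssh1* replicates. Boxes span the 25th to 75th percentiles with the median as a line, and whiskers reach the 5th and 95th percentiles over members; the *ssh1* medians are 27.1%, 18.5%, and 29.4%, with replicate 2 the lowest.

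In 83 members (21.1%) *ssh1* replicate 2 was at most 0.5 of both other *ssh1* replicates, as it was in 3.70% of the genes that were not members. The same held for replicate 1 in 3 members and for replicate 3 in 0. Over these 83, the median level was 30.7%, 8.12%, and 32.8% of the wild-type mean in *ssh1* replicates 1, 2, and 3. Both other libraries were thus themselves near the limit of 0.333, and in 39 of the 83 the mean of replicates 1 and 3 alone was above it. These 39 met the ratio only through replicate 2, so the rule itself raises the share of such genes among the members.

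The 5 of these with the highest wild-type means were taken as examples after their values were seen. They begin with LOC_Os04g41900 and LOC_Os12g37415, whose values are given above. LOC_Os12g39130 had 133, 127, and 106 FPKM in the wild type and 44.4, 0.830, and 51.7 FPKM in *ssh1*. LOC_Os03g08790 had 72.9, 106, and 92.3 FPKM against 21.7, 10.2, and 23.0 FPKM. In each of these 4, replicate 2 stood apart below replicates 1 and 3, as it did for *SH4*, which is no member. LOC_Os02g03880, with 108, 63.8, and 69.6 FPKM against 22.1, 7.84, and 24.0 FPKM, had the same order. Without *ssh1* replicate 2, 300 of the 393 members still met the rule and 93 did not, and 315 genes met it in all.

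In another 128 members the highest *ssh1* value was at most 1.5 times the lowest. These members had a median wild-type mean of 19.8 FPKM and kept a median of 28.4% of it. The examples with the highest wild-type means, chosen after seeing their values, begin with LOC_Os04g53950 and LOC_Os07g40130. LOC_Os02g56920 followed with 189, 148, and 173 FPKM in the wild type and 46.7, 56.0, and 44.2 FPKM in *ssh1* (28.8%). LOC_Os04g38570 had 178, 164, and 165 FPKM against 48.8, 54.8, and 64.1 FPKM, and LOC_Os04g48760 had 176, 145, and 154 FPKM against 35.7, 41.8, and 41.6 FPKM (25.1%). For these genes the fall was of like size in each *ssh1* library.

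The spread among *ssh1* replicates was wider over the members than over other genes. The median coefficient of variation was 28.8% in *ssh1* and 12.4% in the wild type for the members, against 10.5% and 6.60% for genes that were not members. The *ssh1* mean of a member is small by the rule, so these values are a description only. In 155 members the highest *ssh1* value was at least 2 times the lowest, and in 42 at least 5 times. In the wild type 41 members spread at least 2-fold, and in 10 of these 1 replicate was at least 2 times both others, which was replicate 3 in 7 of the 10. LOC_Os08g35760 is the clearest case, with 19.1, 10.95, and 78.0 FPKM in the wild type and 4.14, 1.51, and 2.16 FPKM in *ssh1*, so that its ratio of 7.23% rests largely on wild-type replicate 3. LOC_Os02g57110 was similar, with 9.87, 5.86, and 33.6 FPKM against 3.61, 1.69, and 1.03 FPKM. Both were chosen as examples after their values were seen.

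Stricter readings of the rule kept fewer of the members, and leaving out libraries showed how many do not rest on a single one. In 222 members each *ssh1* value on its own was at most 0.333 of the wild-type mean, and in 338 the highest *ssh1* value was at most 0.5 of the lowest wild-type value. When each of the 6 libraries was left out in turn, 248 members met the rule every time, and 237 also met it under both rescalings of the libraries.

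In the fit over all tested genes (limma on log2(FPKM + 1), Benjamini-Hochberg adjustment), 356 of 18537 genes were called lower in *ssh1* with a 2-fold or larger change and an adjusted p under 0.001, a background of 1.92%, and 3.19% were called higher. All 393 members were tested, and 176 of them were among those called. At an adjusted p below 0.05 the background was 5.95% and the count 384. As the rule used the same contrast, nothing is read from these counts. The remaining 180 called genes were not members, 28 because their wild-type mean was under 5 FPKM and 152 because their *ssh1* mean was above 0.333 of it. Without wild-type replicate 1, 2, or 3, limma called 9, 26, or 14 members, and without *ssh1* replicate 1, 2, or 3 it called 67, 170, or 117. These fits have 1 sample fewer, and whether they call the same genes is not given here. Non-overlap alone was frequent, since every *ssh1* value was below every wild-type value in 42.4% of the genes with a wild-type mean of at least 5 FPKM and above in 20.3%.

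A rule of the same form for rising genes (a wild-type mean of at least 5 FPKM, an *ssh1* mean at least 3 times it, and no overlap) was met by 320 genes, against the 393 that fell. After median-of-ratios scaling the order turned, with 370 rising and 303 falling genes, and after rescaling to a common sum the counts were 323 and 372. When the minimum of 5 FPKM was put on the *ssh1* mean instead, 813 genes had a wild-type mean at most 0.333 of it. Which direction holds more genes therefore depends on the scaling and on the genotype in which the minimum is set.

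Members lay on all 12 chromosomes, as read from the locus IDs. They made up 2.21% (chromosome 8, 19 of 858) to 3.22% (chromosome 4, 36 of 1119) of the genes with a wild-type mean of at least 5 FPKM on chromosomes 1 to 8. On chromosomes 9, 10, 11, and 12 the shares were 4.06% (29 of 714), 3.86% (23 of 596), 4.68% (26 of 555), and 3.65% (26 of 712). Each of the last 4 chromosomes thus had a higher share than any of the first 8, at 4.04% (104 of 2577) against 2.72% (289 of 10621). Rising genes by the matching rule went the other way, at 1.71% on chromosomes 9 to 12 and 2.59% on chromosomes 1 to 8. This grouping of chromosomes was made after the shares were seen, and no test was made.

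**Figure D4:**
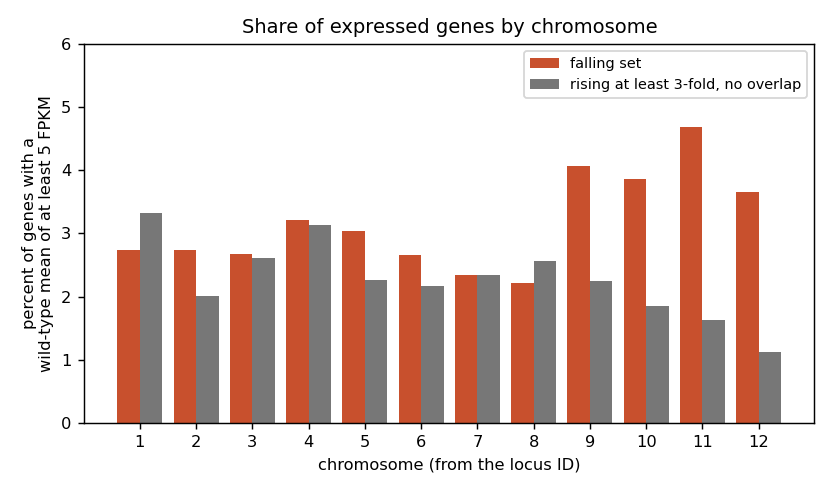
Percent of the genes with a wild-type mean of at least 5 FPKM (vertical axis) on each of the 12 chromosomes (horizontal axis) that were members (orange) or rose at least 3-fold in *ssh1* without overlap (grey). Orange bars are highest on chromosome 11 (4.68%) and lowest on chromosome 8 (2.21%), and grey bars are lowest on chromosome 12 (1.12%).

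The deepest falls also included genes of chromosomes 11 and 12. Of the 18 members at no more than 10% of the wild type, 8 were on these chromosomes, as were 6 of the 10 largest falls on the log2 scale and 3 of the 5 members listed at 0 in all *ssh1* replicates. By comparison, 13.2% of all members and 9.59% of the genes with a wild-type mean of at least 5 FPKM lay there. These counts are small, overlap, and were looked at after the values were seen. LOC_Os12g18230 and LOC_Os11g32940 are in each of them, and a value of 0 can stand for a failed estimate. LOC_Os12g37415, among the 10, kept 28.3% of the wild type, and its log2 fold change was -1.21 without *ssh1* replicate 2.

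Some members were neighbours, and the number that random placement would give was not worked out. In the order of locus IDs, and counting only genes with a wild-type mean of at least 5 FPKM, 14 runs of adjacent members were found, 13 of them pairs, which together held 30 members (7.63%). Among all locus IDs, 4 pairs of members were adjacent. The one longer run, of 4 genes, lay on chromosome 11 and is described here because of its length. It opened with the abundant LOC_Os11g05730 and went on with LOC_Os11g05740, which had 11.6, 10.2, and 13.5 FPKM in the wild type and 0.863, 0.604, and 1.05 FPKM in *ssh1* (7.12%). LOC_Os11g05770 (29.5% of the wild type) and LOC_Os11g05780 (32.5%) ended it, both with wild-type means near the minimum. The members of this run thus differed widely in level and in the size of the fall.

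The same stretch, from LOC_Os11g05140 to LOC_Os11g05780, held 6 members among 20 genes with a wild-type mean of at least 5 FPKM, the most in any such window, against 3 to 5 in the fullest window of each other chromosome. The further 2 members were LOC_Os11g05190, with 70.1, 97.2, and 68.0 FPKM against 21.0, 21.4, and 26.2 FPKM, and LOC_Os11g05280, with 7.20, 7.25, and 7.69 FPKM against 1.67, 0, and 2.26 FPKM. Of the 20 genes, 18 had an *ssh1* mean below that of the wild type. Over all genes with a wild-type mean of at least 5 FPKM, 64.4% did. The 6 members do so by the rule, and the window was picked because it held the most members. The 14 genes that were not members stood at 41.6% to 110% of the wild type, and only LOC_Os11g05552 (101%) and LOC_Os11g05650 (110%) of them had a mean above the wild type.

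Chromosome 7, which carries *SNB*, held 23 members (2.35% of 980), of which 8 preceded *SNB* in locus order and 15 followed it. The nearest were LOC_Os07g05630, before *SNB*, and LOC_Os07g17970, 43 expressed genes after it. LOC_Os07g05630 had 8.36, 10.3, and 9.46 FPKM against 3.34, 1.03, and 4.89 FPKM, and LOC_Os07g17970 had 7.56, 5.04, and 6.74 FPKM against 1.58, 1.96, and 2.20 FPKM. The 214 genes between them, *SNB* included, formed the longest stretch of genes with a wild-type mean of at least 5 FPKM that held no member, out of 405 such stretches with a median length of 20. The next longest, of 180 and 171 genes, were on chromosome 1. The 10 such genes on either side of *SNB* had *ssh1* means from 60.3% (LOC_Os07g12650) to 379% (LOC_Os07g14150) of the wild type. Of these 20, 12 were below their wild-type mean, against 64.4% over all genes with a wild-type mean of at least 5 FPKM. No cluster of falling genes was therefore seen around the mutated locus.

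**Figure D5:**
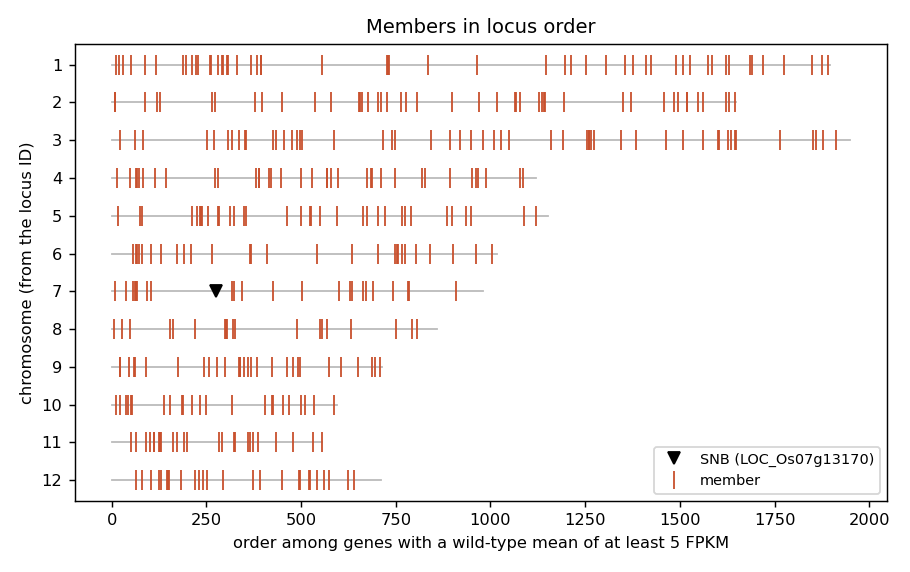
Position of each member (orange tick) in the order of locus IDs among genes with a wild-type mean of at least 5 FPKM (horizontal axis) on chromosomes 1 to 12 (vertical axis), with *SNB* as a black triangle. Ticks are spread over every chromosome, with a gap of 214 genes around *SNB* and 6 members within 20 genes on chromosome 11.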

How the data were processed

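RNA-seq was done on 3 wild-type (YIL100) and 3 *ssh1* panicle samples. Total RNA was extracted with TRIzol, and paired-end TruSeq libraries were sequenced on an Illumina instrument. The authors mapped reads with TopHat2 at default settings to the Nipponbare genome (IRGSP-1.0, MSU7 annotation) and computed the deposited FPKM values with Cuffdiff, 1 value per gene and replicate; tool versions are not given in the sources used here. YIL100 is not Nipponbare, and any effect of mapping to that reference was not tested. Replicates were not pooled, and all columns were assigned to a sample. Nothing in the sources says how same-numbered replicates of the genotypes relate.

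Duplicated locus IDs (4) were removed. The 18537 genes averaging 1 FPKM or more across the 6 samples entered limma 3.58.1 (R 4.3.3) as log2(FPKM + 1), with moderated variances along a mean trend, genotype as sole term, and Benjamini-Hochberg adjustment. Calls needed a 2-fold or larger change and an adjusted p under 0.001. The added 1 FPKM understates changes of low genes. The script was tested on simulated data. The study's own genes also went through an exact permutation test (two-sided). Other tools were pandas 2.3.3, scipy 1.17.1, and matplotlib 3.10.9 in Python 3.11.15.

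Members follow from the rule given in the text. Genes were named as the 10 largest falls on the log2 scale, the 10 highest wild-type means, all members at 0 in every *ssh1* replicate, the 3 genes on either side of the limit, and the shattering genes of the study, and any other gene was chosen after its values were seen. The members, lists, and tests were chosen with earlier results of these data known. The alternatives were other limits, pseudocounts of 0.1, filters, scalings, thresholds, a replicate block, and each replicate left out. A RefSeq gene table (39387 genes) matched 0 of the 55982 locus IDs, so gene products, lists of cell type markers and product classes, sequences, lengths, and promoter motifs are not analysed here.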

Additional observations from a re-analysis of the deposited data

How the results depend on the processing

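The 393 members became 1081 with a limit of 0.5 of the wild-type mean, 175 with a limit of 0.25, and 731 with a wild-type minimum of 1 FPKM, and the limit of the rule thus sets their number. Leaving out 1 replicate gave 315 to 502 genes, and the other settings gave 273 (minimum of 10 FPKM) to 416 (overlap allowed), with 303 after median-of-ratios scaling, all of them members. The 356 genes called lower by limma became 3 with no filter on low values, 879 at an adjusted p below 0.01, 1103 below 0.05, and 0 with a replicate block (1156 at an unadjusted p below 0.05), and 9 to 274 with 1 replicate left out. The 176 members called became 3, 326, 384, and 0 (388 unadjusted) under the same settings, and 9 to 170 with 1 replicate left out. The fits without a replicate assume that the genotype with 2 samples varies like the other. Deviations of same-numbered replicates correlated at -0.103, -0.0732, and -0.169, and 0 of the 6 samples correlated best with its own number. With 3 replicates per genotype, these values cannot tell whether same-numbered samples were paired. The block also leaves fewer degrees of freedom. *SNB* (-1.11) kept its direction throughout but passed both limma thresholds neither with no filter (-1.11, adjusted p = 0.0077), median-of-ratios scaling (-0.98), nor the block (-1.11, adjusted p = 0.00721), and its log2 fold change was -1.17 to -1.02 with 1 replicate left out. *SH4* (LOC_Os04g57530) turned from -0.12 to 0.78 without *ssh1* replicate 2 (-0.62 to 0.78 over the left-out replicates), and *OsMADS15* (LOC_Os07g01820) from -0.11 to 0.034 with median-of-ratios scaling. For the other 32 named genes, 334 comparisons with an alternative kept direction and call, 29 gained a call, and 81 lost one. The causes were not tested. The depth behind single low FPKM values is unknown, which limits the precision of members near 5 FPKM.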

Other observations

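Besides the members, 23 genes met the level and the ratio of the rule and failed only because the genotypes overlapped. Of these, 13 were listed at 0 in at least 1 wild-type library and 9 at 0 in every *ssh1* library. LOC_Os02g43730, with 49.9 FPKM in wild-type replicate 1 and 0 in all other libraries, and LOC_Os02g10370, with 199, 54.5, and 0 FPKM in the wild type and 0, 0, and 42.8 FPKM in *ssh1*, show the pattern, and both were chosen after their values were seen.

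In 16 members (4.07%) a value above 0 was printed identically for another gene of the same library in at least 2 libraries, as it was for 1.06% of the other genes with a wild-type mean of at least 5 FPKM. LOC_Os03g41320 shared all 3 of its wild-type values with other locus IDs, and LOC_Os12g18230 shared 2 of its values. LOC_Os02g30550 and LOC_Os02g15960 were also among the 16, of which 10 were listed at 0 in at least 1 *ssh1* replicate. Whether such genes share reads, or rest on a few fragments each, was not tested.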
